A study of Mus musculus with 8 samples.

Results

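The genes described here encode the subunits of the oxidative phosphorylation machinery that are made from nuclear DNA: the NADH dehydrogenase subunits of complex I (Nduf genes), the succinate dehydrogenase subunits of complex II (Sdh), the cytochrome bc1 subunits of complex III (Uqcr genes and Cyc1), the cytochrome c oxidase subunits of complex IV (Cox4 to Cox8) and the ATP synthase subunits of complex V (Atp5). Members were taken by symbol from the protein-coding genes of the annotation, which gave 85 Ensembl identifiers with 84 symbols, of 56953 identifiers in the count table. Ndufa4 and Cox7a2l were placed with complex IV, the complex their products are known to join or bind. This put 35 genes in complex I, 4 in complex II, 9 in complex III, 12 in complex IV and 18 in complex V, and 7 tissue-restricted complex IV forms were kept apart. Of the 85 identifiers, 82 had at least 1 count. The testis forms Cox7b2 and Cox8c and a second identifier of Atp5o had no count in any library.

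All samples are CT26, a mouse colorectal carcinoma cell line. Transplanted tumours were given normal saline or mLJZD, a drug whose abbreviation the labels leave unexpanded. Cultured CT26 cells received 10% control serum or 10% serum containing mLJZD for 48 h, and the line had been kept in medium with fetal bovine serum before that. RNA was sequenced from 2 libraries in each of these 4 groups, 8 in all, and the stated aim was to see which transcripts account for the effects of mLJZD. Neither the strain or age of the tumour hosts nor separate animals or cultures for the libraries of a group are named, so each p-value sets a difference against the spread of these libraries alone, which may be technical.

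Library totals ran from 16594912 to 29363861 counts. The tumours held RNA that the cultures lacked: the summed level of 8 leukocyte markers was 501.8 to 532.6 CPM (counts scaled by the library total) in the tumours and 5.87 to 9.52 CPM in the cultures, and that of 5 endothelial markers was 190.5 to 200.3 CPM against 0.0489 to 0.180 CPM. The summed level of 12 colon epithelium markers, most of it Krt20 in the tumours, was 301.2 and 296 CPM in the saline tumours and 183.8 and 186.1 CPM in the mLJZD tumours, and 0 of 5 tested were called higher there and 3 lower (edgeR), against 15.4% and 16.0% of all genes. In the cultures it was 188.1 and 175.3 CPM with control serum and 240 and 238.6 CPM with mLJZD serum. Of 6 tested there, 1 was called higher and 1 lower (edgeR), against 28.8% and 26.6% of all genes. Between 7 and 10 of the 12 had counts in a library, Cdx2 and Cldn3 were at 0 in all tumour libraries, and Cdx1 and Epcam were at 0 in all culture libraries. The summed level of 17 skeletal muscle markers was 3297 and 3336 CPM in the saline tumours and 738.3 and 731.9 CPM in the mLJZD tumours, and 14 of 16 tested were called lower and 1, Myh2, higher. In the cultures it was 407.9 and 400.8 CPM with control serum and 298.6 and 290.4 CPM with mLJZD serum, from 6 to 9 of the 17 genes. There 3 of 3 tested were called lower with mLJZD serum (edgeR), against 26.6% of all genes. With the trend in transcript length and GC removed, as described below, 1 was, against 11.6%. The part of either marker list in the member values in tumours was not tested. In tissue pieces, fewer cells of a type and less RNA per cell cannot be told apart.

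Oxidative phosphorylation passes electrons from NADH through complex I, or from succinate through complex II, to ubiquinone, then through complex III and cytochrome c to complex IV, which reduces oxygen. Complexes I, III and IV pump protons across the inner mitochondrial membrane, and complex V uses the returning protons to make ATP. Mitochondrial DNA encodes some of the subunits of complexes I, III, IV and V, while the nucleus encodes the rest, and complex II is wholly nuclear. Several complex IV subunits exist as pairs: Cox6a2, Cox7a1 and Cox8b are the forms of heart and skeletal muscle, and Cox6a1, Cox7a2 and Cox8a are their partners in most other tissues.

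The control cultures carried more subunit mRNA relative to all counts than any other group. Summed over all members, the level was 15540 and 14612 CPM in control cultures, 11005 and 10564 CPM in mLJZD cultures, 8327 and 8497 CPM in saline tumours, and 8751 and 8399 CPM in mLJZD tumours. As a share of all counts this was 1.51% ± 0.0656 in control cultures, 1.08% ± 0.0311 in mLJZD cultures, 0.841% ± 0.0120 in tumours given saline and 0.858% ± 0.0249 in those given mLJZD (SD, n = 2). The ranges of the control cultures, the mLJZD cultures and the tumours did not overlap, and the tumour groups overlapped each other.

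Complex IV was at about the tumour level in the mLJZD cultures. Its 12 ubiquitous genes summed to 3480 and 3139 CPM in control cultures and 1776 and 1843 CPM in mLJZD cultures, against 1689 and 1744 CPM in saline tumours and 1811 and 1725 CPM in mLJZD tumours. Complex I summed to 3414 and 3104 CPM in control cultures and 2159.9 and 2129 CPM in mLJZD cultures. Complex II, with 817 and 808 CPM against 726 and 683 CPM, and complex V, with 6154 and 6012 CPM against 5244 and 4837 CPM, lay closer together, though without overlap. Both mLJZD cultures stayed above all tumours for complexes I, II, III and V, and for complex IV 1 of the 2 lay within the tumour range. The plot of summed levels shows these values for every library. Single sums of 2 against 2 libraries cannot pass a threshold of 0.05, since the smallest exact permutation p, two-sided, is 0.333, so they are given as values.

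**Figure D1:**
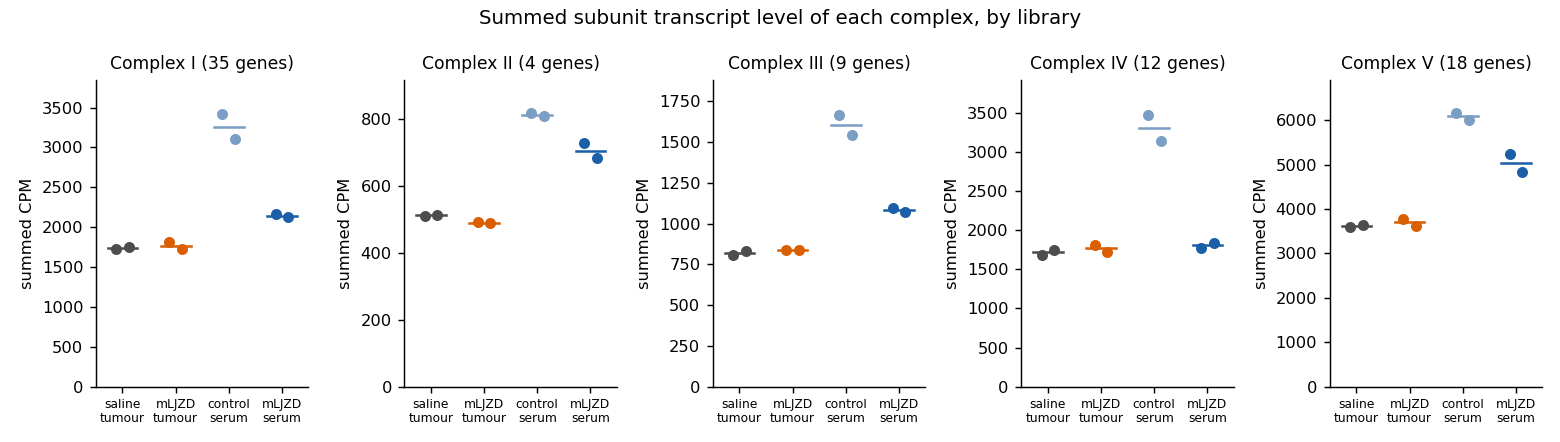
Summed CPM (y axis, from 0) of the ubiquitous nuclear subunit genes of each respiratory complex in the 4 groups (x axis); points are libraries and lines are means of 2. Control cultures are highest in every panel, and for complex IV the mLJZD cultures, at 1776 and 1843, lie beside the tumours.

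Per kilobase of principal transcript, the most abundant member in every group was Atp5b, the catalytic beta subunit of the ATP synthase, at 713 CPM per kilobase in saline tumours, 739.8 in mLJZD tumours, 1225 in control cultures and 1197 in mLJZD cultures. Cox6a1 and Cox4i1, structural subunits of complex IV, came next in all 4 groups. In control cultures Cox6a1 stood at 1093 and Cox4i1 at 1009.5 CPM per kilobase, and in mLJZD cultures at 491.5 and 596 CPM per kilobase, so their order turned. Among the ubiquitous members Atp5s, a coupling factor of the ATP synthase that is only loosely tied to it, was lowest, at 1.55 CPM per kilobase in saline tumours and 3.58 in control cultures.

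In cultures, serum containing mLJZD went with lower levels of nearly all subunit genes. Of 79 members with enough counts to test, 72 fell and 2 rose (edgeR quasi-likelihood test, Benjamini-Hochberg adjusted p under 0.05), where 26.6% of all genes tested were called lower and 28.8% higher. The median log2 fold change was -0.83 over the members and -0.01 over all genes tested. By complex, 34 of 35 genes of complex I fell, 3 of 4 of complex II, 8 of 9 of complex III, 12 of 12 of complex IV and 14 of 17 of complex V. Other short transcripts were lower in these cultures too, and values by transcript length follow those of the genes.

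In complex I a core subunit fell most and another rose. Ndufs7, which holds the cluster next to ubiquinone, was at 150 and 147 CPM in control cultures and 79.0 and 62.4 CPM in mLJZD cultures, a log2 fold change of -1.13 (SE 0.10, adjusted p = 4.05e-07, edgeR). Ndufb4 and Ndufa7, accessory subunits, fell by 1.11 and 1.08 on the log2 scale. The core subunits Ndufv1, Ndufv2, Ndufs3 and Ndufs8 fell by 0.49 to 0.87. Ndufs1, the largest subunit, which carries iron-sulphur clusters, rose from 149 and 150 CPM to 186 and 176 CPM (log2 fold change 0.22, SE 0.07, adjusted p = 0.0175, edgeR). The groups did not overlap for Ndufs7 or Ndufs1, and among all genes tested in cultures 35.4% were lower and 42.0% higher without overlap. Without control culture 1, without control culture 2 or without mLJZD culture 1 the adjusted p of Ndufs1 was 0.0598, 0.0775 and 0.0788 (edgeR).

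In complex II, the membrane-bound enzyme of the citric acid cycle, 1 gene rose and 3 fell. Sdha, its flavoprotein, was at 258 and 276 CPM with control serum and 324 and 311 CPM with mLJZD serum (log2 fold change 0.19, SE 0.07, adjusted p = 0.0342, edgeR). Sdhb, the iron-sulphur subunit, was at 236 and 217 CPM and then 164 and 143 CPM (-0.62, SE 0.08). The membrane anchors Sdhc and Sdhd fell by 0.51 each. The rise of Sdha was lost without control culture 1 (adjusted p = 0.210), without control culture 2 (0.0591) and without mLJZD culture 1 (0.103), all by edgeR. Upper-quartile scaling called neither Sdha nor Ndufs1 higher, with no member at an unadjusted p under 0.05 in that direction, while DESeq2 called both.

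In complex III the largest falls were those of small subunits. Uqcrq, a small subunit bound to cytochrome b, was at 281 and 233 CPM in control cultures and 94.0 and 107 CPM in mLJZD cultures, a log2 fold change of -1.41 (SE 0.10, adjusted p = 4.96e-08, edgeR) and the largest fall among the ubiquitous members. Uqcr11 fell from 102 and 85.3 CPM to 34.1 and 40.6 CPM (-1.38, SE 0.11). Uqcr10 fell by 0.96. Cyc1, the heme-bearing cytochrome c1, and Uqcrfs1, the Rieske iron-sulphur protein, fell by 0.54 and 0.55. Uqcrc2, a core protein with no redox group, was at 117 and 135 CPM and then 149 and 150 CPM, with an adjusted p of 0.0554 by edgeR.

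Every ubiquitous gene of complex IV fell, by 0.59 for Cox7a2l to 1.30 for Cox8a. Cox8a was at 272 and 222 CPM in control cultures and 90.9 and 117 CPM in mLJZD cultures (SE 0.12, adjusted p = 4.59e-07, edgeR). Cox6a1 went from 659 and 589 CPM to 314 and 247 CPM (-1.21, SE 0.10). Cox4i1, the subunit through which ATP is known to regulate the enzyme, went from 796 and 749 CPM to 477 and 435 CPM (-0.82, SE 0.08). Cox7a2 fell by 1.15, but the mLJZD cultures were far apart, at 49.2 and 92.0 CPM. The groups did not overlap for any of these 4 genes.

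In complex V 14 genes fell and 3 were not called. Atp5a1 and Atp5b, the alpha and beta subunits of the head, were among the latter, and Atp5b was at 2313 and 2380 CPM with control serum and 2454 and 2133 CPM with mLJZD serum. Among the genes of the proton channel and stalk, Atp5g2, a copy of subunit c, was at 310 and 296 CPM and then 89.7 and 169 CPM (log2 fold change -1.28, SE 0.18, adjusted p = 3.91e-05, edgeR). Atp5k, the small subunit e, went from 23.5 and 16.5 CPM to 9.39 and 9.20 CPM (-1.17, SE 0.17). Atp5e, the epsilon subunit of the central stalk, fell by 1.03. The 2 mLJZD cultures stood apart from each other for Atp5g2 as they did for Cox7a2, Cox6c (98.5 and 136 CPM) and Cox5b (81.0 and 115 CPM), and the share of counts from the 13 protein genes of mitochondrial DNA was 0.567% and 1.05% in the same libraries. What part this difference has in these falls was not tested.

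Promoter sequence is shown for members among those with the largest falls in complexes IV and V that hold the site of NRF1, a factor known for its role at respiratory genes. That of Ndufa11, of complex I, is added. The consensus site, a palindrome of 10 bases, was found in 5 of 73 RefSeq promoter windows of members, or 6.85%, against 0.971% of all 32851 windows of the same 300 bases, and all 84 member symbols were matched to RefSeq while 68 had a window. Bases just before the start site are printed 5′ to 3′ on the strand of the gene, from RefSeq on GRCm38.p6, with the motif in capitals. They lie at chr5:115348959-115349158 (Cox6a1, minus strand), chr15:102671048-102671147 (Atp5g2, minus strand), chr5:108434400-108434499 (Atp5k, minus strand) and chr17:56717662-56717761 (Ndufa11, plus strand).
Cox6a1: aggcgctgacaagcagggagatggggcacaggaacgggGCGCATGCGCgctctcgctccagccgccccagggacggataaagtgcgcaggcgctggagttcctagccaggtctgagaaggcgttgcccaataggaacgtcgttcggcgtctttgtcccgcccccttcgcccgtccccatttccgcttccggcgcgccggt
Atp5g2: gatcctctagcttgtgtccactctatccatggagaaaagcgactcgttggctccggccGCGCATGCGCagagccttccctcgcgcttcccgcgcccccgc
Atp5k: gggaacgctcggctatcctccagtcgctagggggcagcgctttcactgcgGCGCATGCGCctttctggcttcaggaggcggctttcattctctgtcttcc
Ndufa11: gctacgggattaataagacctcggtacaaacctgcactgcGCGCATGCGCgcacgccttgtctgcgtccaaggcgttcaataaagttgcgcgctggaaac
The motif starts 162 bases before the start of Cox6a1 and 42, 50 and 60 bases before those of Atp5g2, Atp5k and Ndufa11. In cultures Ndufa11, an accessory subunit of complex I named here for its motif, was at 54.0 and 50.4 CPM and then 28.3 and 28.2 CPM, and the fifth holder, Uqcrc1, with the site behind its start, fell by 0.49 on the log2 scale. After removal of the length and GC trend with the principal transcript, Cox6a1 was still called lower (-0.31, adjusted p = 0.0156, edgeR). Atp5g2 (-0.41), Atp5k (-0.17), Ndufa11 (-0.01) and Uqcrc1 (0.08) were then not called. Both strands were searched, and no motif searched lies within another. The ETS letters CCGGAAGT were in 6.85% of member windows and 3.89% of all, and the YY1 consensus in 6.85% and 0.852%. A match is only a run of letters in this window.

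**Figure D2:**
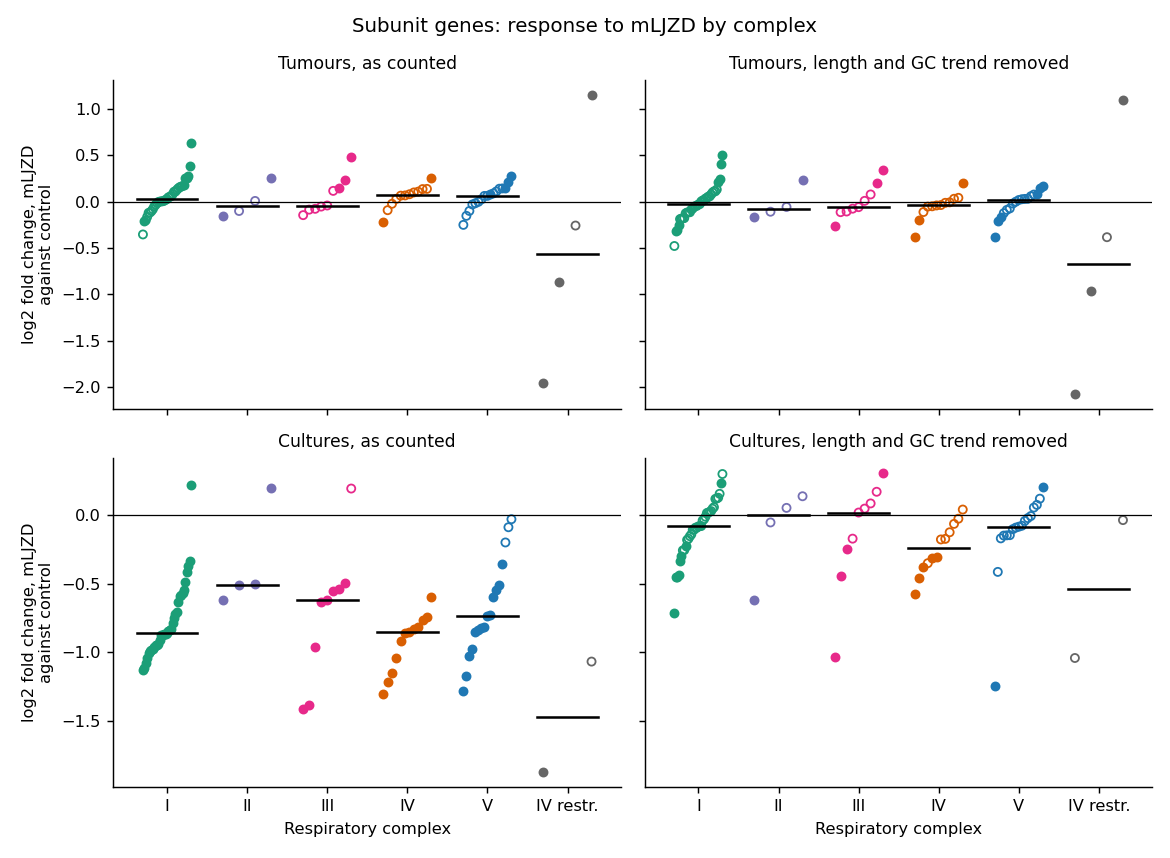
Log2 fold change with mLJZD (y axis) of each tested subunit gene by complex (x axis), in tumours (top) and cultures (bottom), from counts as deposited (left) and after removal of the trend with transcript length and GC (right). Filled points have an adjusted p under 0.05 and lines are medians; the complex IV median in cultures goes from -0.85 to -0.24.

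Most short coding transcripts were lower in the mLJZD cultures. The members are short: the principal transcripts of the 79 tested had a median of 765 bases, and 63.3% were at most 1000 bases long, against a median of 2981 bases and 5.80% among 11101 other coding genes tested. Among other coding genes of up to 700 bases, 71.8% were called lower, with a median log2 fold change of -0.76, where 32 of 33 members were called lower with a median of -0.94. Over 700 and up to 1000 bases 77.6% of the others were lower with a median of -0.70, against 17 of 17 members and -0.84. Over 1000 and up to 1500 bases the medians were -0.52 and -0.58, and over 1500 and up to 2000 bases -0.35 and -0.49. Over 2000 bases the others had a median of 0.19, with 42.3% called higher, and the 6 members had a median of -0.20. In that group are Ndufs1 and Sdha, which were called higher, and Atp5a1, which was not called. The other 3 members there, Ndufa10 (-0.375), Sdhc (-0.510) and Atp5g1 (-0.825), were called lower, against 15% of the other coding genes of that length. Atp5g1 is placed there by a principal transcript of 4715 bases, and its shortest principal transcript has 596 bases. Across the 79 members the log2 fold change went with log2 length at Pearson r = 0.594 (Spearman 0.588), a description over genes of the same libraries.

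**Figure D3:**
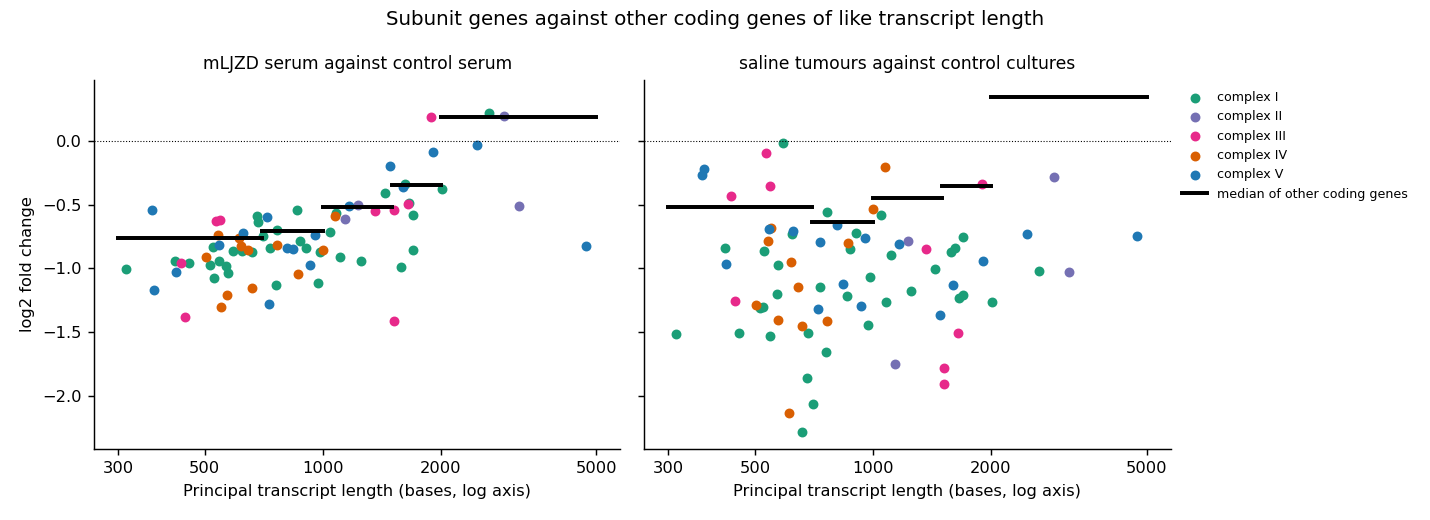
Log2 fold change (y axis) of ubiquitous subunit genes, coloured by complex, against principal transcript length (x axis, log), for mLJZD against control serum (left) and saline tumours against control cultures (right); black bars are medians of other coding genes in 5 length classes. In cultures the members lie near or a little under the bars, from -0.94 against -0.76 at the shortest; in tumours against cultures most lie well under them.

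With a smooth trend of each library with length and GC content removed, most of the falls in cultures were no longer called. Of the 79 members, 17 were then lower and 3 higher, against 11.6% and 20.3% of all genes tested, with a median of -0.09. The split of all called genes moved from 51.9% higher to 63.7% higher. The length of a gene depends on which transcript is taken, so the removal was run in 4 ways, which left 17, 34, 22 or 19 members lower, as the closing section lists. All 4 called 15 members lower, and these were picked out after their values were seen: 6 of complex I (Ndufa12, Ndufb4, Ndufs4, Ndufs7, Ndufv2 and Ndufv3), Sdhc, 3 of complex III (Uqcr11, Uqcrb and Uqcrq), and 5 of complex IV (Cox5b, Cox6a1, Cox7b, Cox8a and Ndufa4). Uqcrc2 was higher in all 4 (log2 fold change 0.31, SE 0.08, adjusted p = 0.00951, edgeR, with the principal transcript). Ndufs1 (0.15, adjusted p = 0.0911) and Sdha (0.14, adjusted p = 0.111) were no longer called higher with the principal transcript (edgeR). Both were still called with the longest transcript.

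Among the 15, Uqcrq kept a log2 fold change of -1.03 (SE 0.09, adjusted p = 5.64e-06, edgeR), which became -0.48 when the shorter of its principal transcripts, 405 bases and not 1521, was taken. Ndufs4, an accessory subunit of the arm that takes up NADH, was at 62.5 and 61.6 CPM in control cultures and 34.8 and 36.5 CPM in mLJZD cultures. Its log2 fold change of -0.86 was -0.71 after removal (SE 0.08, adjusted p = 2.79e-05, edgeR) and lay between -0.77 and -0.64 over the 4 ways. Cox7b, an accessory subunit of complex IV, kept -0.58 and Sdhc -0.62. Ndufa8 turned: it was called lower as counted (-0.54) and higher after removal (0.23, adjusted p = 0.0407, edgeR), though not with the shortest principal transcript (0.17, adjusted p = 0.113, edgeR). Atp5b was the third gene called higher after removal (0.20, adjusted p = 0.0347, edgeR). Atp5g1 shows the limit of the removal, since its value was -1.25 with a principal transcript of 4715 bases and 0.05 with one of 596 bases.

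In tumours the subunit genes moved little, and in both directions. Of 81 members tested, 16 were higher and 5 lower with mLJZD (edgeR, adjusted p under 0.05), where 15.4% of all genes were called higher and 16.0% lower, and the median log2 fold change was 0.05 against 0.00. Without the restricted forms 15 were higher and 3 lower of 77, with values from -0.35 to 0.64. These counts rest on single libraries: without mLJZD tumour 1 no member was called in either direction by edgeR, with 11 higher and 9 lower at an unadjusted p under 0.05, and without mLJZD tumour 2 the counts were 9 and 0 (29 and 3 unadjusted). Calls over all genes fell too, to 3.43% higher and 3.32% lower without mLJZD tumour 1 and to 6.48% and 5.83% without mLJZD tumour 2. DESeq2 on all 4 tumours called 10 members higher and 3 lower, against 10.7% and 10.6% of all genes. Among the ubiquitous genes named below, Ndufv2, Ndufb3, Sdhc, Uqcrb, Atp5h and Atp5b were not called by DESeq2. Nor were they called by edgeR with no filter on low counts or in one fit of all 8 libraries.

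Complex I held 6 of the higher genes. Ndufb6, an accessory subunit of its membrane arm, was at 15.8 and 17.03 CPM in saline tumours and 27.4 and 22.4 CPM in mLJZD tumours, which is 0.64 on the log2 scale (SE 0.11, adjusted p = 0.000369, edgeR) and the largest rise of a ubiquitous member. Ndufv3, a small subunit of the NADH-binding part, was at 32.3 and 33.4 CPM and then 43.0 and 41.2 CPM (0.39, SE 0.07). Ndufb11 rose by 0.28 and the core subunit Ndufv2 by 0.18, while Ndufb3, at 46.8 and 47.1 CPM and then 42.7 and 36.8 CPM, was the 1 gene of the complex called lower (-0.20, adjusted p = 0.0478, edgeR). The groups did not overlap for these 5 genes, and among all genes tested in tumours 27.9% were higher and 36.6% lower without overlap. The core subunits Ndufs1, Ndufs3, Ndufs7, Ndufs8 and Ndufv1 were not called.

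In complex II 1 gene rose and 1 fell, and in complex III 3 of 9 rose. Sdhb rose from 74.95 and 75.8 CPM to 84.9 and 91.4 CPM (log2 fold change 0.26, SE 0.05, adjusted p = 0.00082, edgeR), and its neighbour Sdhc fell from 93.1 and 87.6 CPM to 81.2 and 77.1 CPM (-0.16, SE 0.05). Uqcrh, the acidic hinge protein that binds cytochrome c1, was at 94.8 and 104 CPM and then 141 and 132 CPM, which is 0.49 on the log2 scale (SE 0.06, adjusted p = 8.75e-06, edgeR). It had the smallest p of all members in tumours. Uqcrq rose by 0.24 and Uqcrb by 0.14.

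In complexes IV and V the rises were small. Cox4i1 was at 309 and 339 CPM in saline tumours and 387 and 371 CPM in mLJZD tumours (log2 fold change 0.26, SE 0.05, adjusted p = 0.00119, edgeR). Cox6c, an accessory subunit, fell from 99.5 and 95.5 CPM to 84.6 and 78.6 CPM (-0.22, SE 0.05). In complex V, Atp5e rose by 0.27, Atp5d, the delta subunit of the stalk, by 0.21, Atp5h by 0.15 and Atp5b by 0.09. None of these groups overlapped. Removal of the length and GC trend left 12 of the 16 higher genes called and raised the lower calls to 12 (background 16.1% and 16.9%), and the median became -0.04. In all 4 ways of removal 10 members were higher, among them Ndufb6, Ndufv3, Ndufb11, Uqcrh, Sdhb, Cox4i1, Atp5d and Atp5b, and 12 lower, among them Ndufb3, Sdhc and Cox6c.

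Untreated tumours held less subunit mRNA relative to all counts than untreated cultures for most members. Of 81 members, 73 were lower in the tumours and 3 higher (edgeR), against 35.7% and 44.9% of all genes tested. All 77 ubiquitous members tested had a negative log2 fold change, with 73 of them called and a median of -1.01, where the median of all genes was 0.15. Scaling by library totals only moved the latter to 0.31, with 72 members lower. The 73 comprised 34 genes of complex I, 4 of complex II, 8 of complex III, 12 of complex IV and 15 of complex V. The tumours also hold leukocyte and endothelial RNA, and more muscle marker RNA than the cultures, as given above. The part of these RNAs in the member values was not tested.

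The leading genes of this contrast were of complexes I and IV. Ndufb6 was at 15.8 and 17.03 CPM in saline tumours and 73.9 and 69.3 CPM in control cultures (log2 fold change -2.29, SE 0.08, adjusted p = 1.56e-09, edgeR). Ndufa4, a complex IV subunit first assigned to complex I, was at 64.7 and 68.6 CPM against 278 and 246 CPM (-2.14, SE 0.07). Ndufb9, an accessory subunit of complex I, was at 23.6 and 22.2 CPM against 90.9 and 80.4 CPM (-2.07, SE 0.08). The groups did not overlap in any of the 3, as 34.9% of all genes tested were lower in the tumours without overlap. The ubiquitous members not called were Ndufa6, Uqcrb, Atp5k and Atp5mpl.

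In this contrast the members lay under other coding genes of like length. Among other coding genes of up to 700 bases 55.7% were lower in saline tumours with a median of -0.52, where the members had -0.96. Over 2000 bases the others had a median of 0.35 and all 6 members were lower, with a median of -0.88. After removal of the trend 62 members were lower and 12 higher (background 33.9% and 44.5%), with a median of -0.46, and 60 were lower in all 4 ways of removal. The members among the lower genes then numbered 30 in complex I, 4 in complex II, 6 in complex III, 10 in complex IV and 12 in complex V.

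The change with mLJZD, given to the tumours as such and to the cultures in serum, differed between tumours and cultures for most subunit genes. In a fit of all 8 libraries, the effect in tumours minus the effect in cultures was positive for 72 of 81 members and negative for 1 (edgeR interaction, adjusted p under 0.05), against 23.8% and 20.5% of all genes. The median difference was 0.90 on the log2 scale, against 0.07 over all genes. Uqcrq led at 1.73 (SE 0.13, adjusted p = 1.51e-08, edgeR), followed by Ndufb6 at 1.59 and Uqcr11 at 1.58. Sdha was the 1 member called in the negative direction, at -0.21 (SE 0.08, adjusted p = 0.0429, edgeR), and DESeq2 called 2. Ndufs1 and Uqcrc2 also had negative values, -0.22 and -0.16, and were not called. Cox8b is among the 81, but with 0 counts in all cultures its difference could not be estimated.

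The difference was also smaller with the trend removed. It left 32 members positive and 1, Uqcrc2, negative (background 16.1% and 14.7%), with a median of 0.23, and 29 were positive in all 4 ways of removal, among them Uqcrq, Ndufb6 and Uqcr11. Scaling by library totals moved the share of positive differences among all called genes from 53.7% to 39.7% and the median of all genes to -0.09, while 68 members stayed positive and 3 were negative. Sdha was not called without any one of the tumour libraries, without control culture 1 or without mLJZD culture 1, where its difference lay between -0.23 and -0.18.

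**Figure D4:**
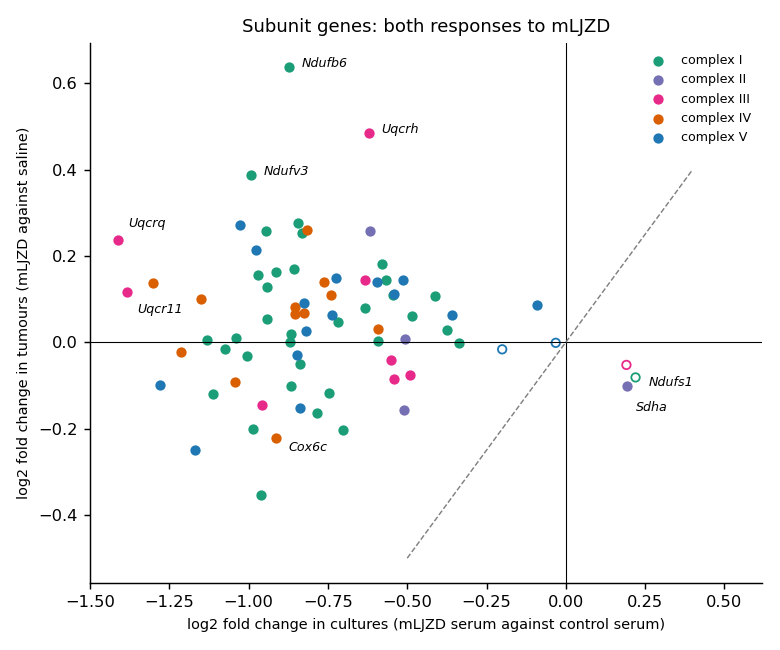
Log2 fold change with mLJZD in tumours (y axis) against that in cultures (x axis) for 77 ubiquitous subunit genes, coloured by complex; filled points differ between the 2 at an adjusted p under 0.05 and the dashed line marks equal responses. Nearly all points lie left of the line, with Uqcrq at -1.41 in cultures and 0.24 in tumours, and Sdha is the filled point to its right.

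The muscle forms of complex IV were rare beside their partners, and no test of a form against its partner was run. Cox6a2 was at 7.26 and 7.48 CPM in saline tumours and 4.31 and 3.56 CPM in mLJZD tumours, without overlap (log2 fold change -0.87, SE 0.18, adjusted p = 0.00142, edgeR). Its partner Cox6a1 was at 258 and 269 CPM and then 259.5 and 247 CPM. Of the counts of the pair, Cox6a2 made up 2.74% (exact 95% binomial interval 2.31 to 3.22) and 2.71% (2.29 to 3.17) in saline tumours and 1.63% (1.30 to 2.03) and 1.42% (1.08 to 1.82) in mLJZD tumours. These intervals cover counting error only. In cultures Cox6a2 was at 2.90 and 1.94 CPM and then 0.489 and 0.851 CPM (-1.87, SE 0.44, adjusted p = 0.00231, edgeR), and after removal of the trend the adjusted p was 0.0803. Its share of the pair in cultures was 0.438% (0.341 to 0.555) and 0.328% (0.237 to 0.441) with control serum and 0.155% (0.0746 to 0.286) and 0.343% (0.222 to 0.506) with mLJZD serum, so the groups overlapped, and Cox6a1 fell as well.

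Cox8b was seen in tumours only at this depth. It was at 1.73 and 2.63 CPM in saline tumours and 0.600 and 0.482 CPM in mLJZD tumours (log2 fold change -1.96, SE 0.41, adjusted p = 0.00142, edgeR). All 4 culture libraries had 0 counts, and 3 counts over a group, the limit that a count of 0 allows, would be 0.0658 CPM in control cultures. Against that limit the pooled value of saline tumours, 86 counts, was 33.1-fold higher and that of mLJZD tumours, 19 counts, 8.27-fold higher. These ratios do not include the counting error of the tumours. Its partner Cox8a was at 170 and 174 CPM in saline tumours and 190 and 179 CPM in mLJZD tumours. Cox8b is also the restricted form with the myogenic E-box letters CAGCTG before its start, printed here since the muscle markers move with it; the stretch is chr7:140900447-140900546 (minus strand, RefSeq, GRCm38.p6), 5′ to 3′, with the motif, 19 bases before the start, in capitals.
Cox8b: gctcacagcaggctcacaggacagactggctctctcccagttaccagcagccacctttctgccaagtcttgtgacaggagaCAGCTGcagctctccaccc
The same letters were in 8.22% of member windows and 16.3% of all windows, and the site of MEF2, searched by its known form, was in no member window and in 3.19% of all. The table holds no window for Cox6a2.

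Cox7a1, the third muscle form, was at 2.74 and 2.78 CPM in saline tumours, 2.56 and 1.93 CPM in mLJZD tumours, 3.03 and 1.13 CPM in control cultures and 1.17 and 0.919 CPM in mLJZD cultures. Neither the tumours (log2 fold change -0.26, adjusted p = 0.533) nor the cultures (-1.07, adjusted p = 0.0748) passed the edgeR test. The tumour groups did not overlap, both values had the sign of those of Cox6a2, and the control cultures overlapped the tumours. In cultures it passed without control culture 2 (-1.61, adjusted p = 0.00349, edgeR), and also with upper-quartile scaling, with no filter and in the fit of all 8 libraries (adjusted p 0.0459, 0.0183 and 0.0282, edgeR). As counted, Cox7a1 was not called between saline tumours and control cultures (log2 fold change 0.24, adjusted p = 0.597, edgeR). With the trend removed Cox7a1 was called higher in saline tumours (1.15, adjusted p = 0.0116, edgeR), and in all 4 ways of removal, as was Cox6a2. Cox8b had 0 counts in both control cultures, so it could only be called higher there, whichever way the trend was removed.

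The muscle markers moved with Cox6a2 and Cox8b in tumours. Ckm, the muscle creatine kinase, was at 167.1 and 166.2 CPM in saline tumours and 20.3 and 19.95 CPM in mLJZD tumours (log2 fold change -3.02, edgeR), and was at 0 in all cultures. Myh4, the fast myosin heavy chain, was at 771 and 781 CPM and then 72.1 and 70.0 CPM, and at 0 in cultures. Myh2, another myosin heavy chain, was the 1 marker called higher, at 10.1 and 9.09 CPM and then 19.2 and 22.3 CPM. Mb, which encodes myoglobin, was at 7.01 and 5.91 CPM and then 5.18 and 4.88 CPM, and was not called. Ucp1, the defining gene of brown fat, where Cox7a1 and Cox8b are also known to be active, was at 0 in all 8 libraries. The list of 5 brown fat markers that holds Ucp1 was not at 0, with counts for 2 or 3 genes in each tumour library. It summed to 39.41 and 41.83 CPM in saline tumours, 44.26 and 47.97 CPM in mLJZD tumours and 0 to 0.170 CPM in cultures. The part of muscle tissue or brown fat in the values of Cox6a2 and Cox8b was not tested. Both forms lost their call, with the same direction, when either mLJZD tumour was left out: Cox6a2 had -1.03 and -0.72 (adjusted p 0.0589 and 0.0642) and Cox8b -2.14 and -1.80 (0.111 and 0.102), by edgeR.

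**Figure D5:**
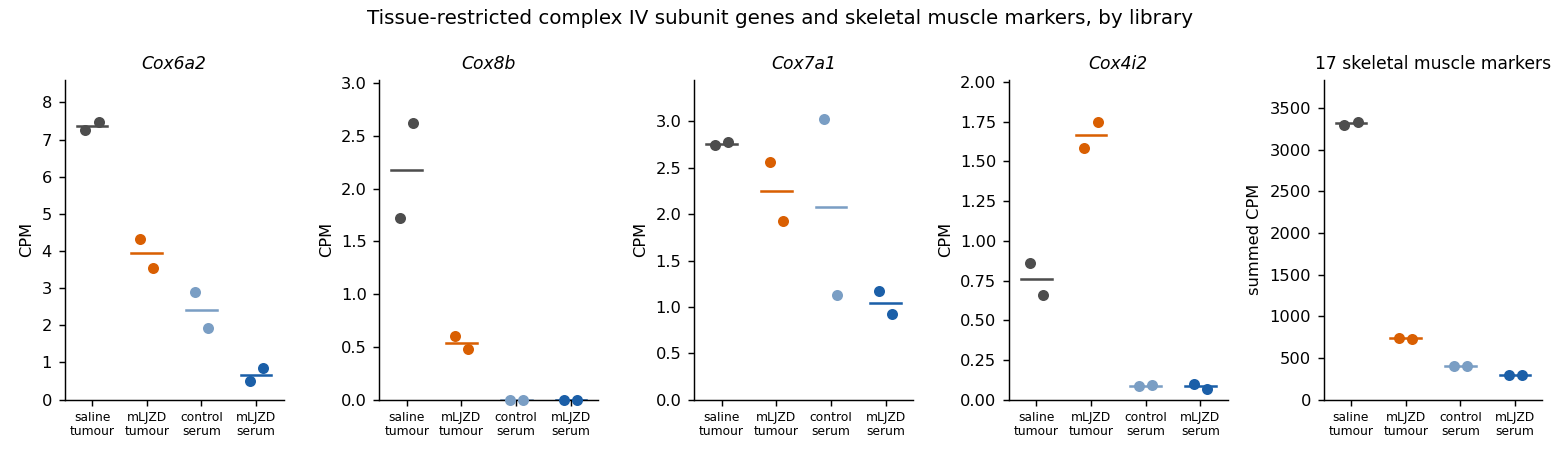
CPM (y axes, from 0) of Cox6a2, Cox8b, Cox7a1 and Cox4i2, and the summed CPM of 17 skeletal muscle markers, in the 4 groups (x axis); points are libraries and lines are means of 2. Cox6a2, Cox8b and the markers are highest in saline tumours, at 7.26 and 7.48, 1.73 and 2.63, and 3297 and 3336 CPM, and Cox4i2 is highest in mLJZD tumours.

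Cox4i2, the form of subunit IV known from lung and from cells short of oxygen, went the opposite way. It was at 0.863 and 0.657 CPM in saline tumours and 1.58 and 1.75 CPM in mLJZD tumours (log2 fold change 1.16, SE 0.39, adjusted p = 0.0311, edgeR), and at 0.0681 to 0.0979 CPM, 2 counts each, in the 4 cultures. DESeq2 gave an adjusted p of 0.159, and leaving out any 1 tumour gave 0.0957 to 0.247 by edgeR. Its share of the counts of the Cox4i1 and Cox4i2 pair was 0.279% (exact interval 0.162 to 0.446) and 0.194% (0.103 to 0.331) in saline tumours and 0.407% (0.273 to 0.584) and 0.469% (0.315 to 0.673) in mLJZD tumours. Cox6b2, a testis form, had between 0 and 6 counts in a library.

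Genes that act beside the subunits were taken from lists. Of 45 tested assembly factors, proteins that build the complexes without staying in them, 1 was higher and 2 lower in tumours (15.4% and 16.0% of all genes), and 3 were higher and 26 lower in cultures (28.8% and 26.6%). After removal of the trend 1 was higher and 8 were lower in cultures, against 20.3% and 11.6%. The median in cultures was -0.42. Uqcc2, which helps to assemble complex III, was at 38.9 and 39.8 CPM in saline tumours and 52.0 and 49.7 CPM in mLJZD tumours (log2 fold change 0.40, SE 0.07, adjusted p = 0.000126, edgeR), and fell by 1.20 in cultures. Coa5, needed for complex IV, rose in cultures from 132 and 139 CPM to 214 and 222 CPM (0.63, SE 0.07, 0.33 after removal) and was lower in tumours (-0.20). Cox15, which makes heme a for complex IV, rose by 0.50 in cultures, and Tmem70, which helps to assemble complex V, fell by 0.34 in tumours.

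Among 9 tested genes close to the members but outside the rule, 5 were higher and 1 lower in tumours, against 15.4% and 16.0% of all genes. In cultures 7 were lower, against 26.6%, and 2 after removal of the trend, against 11.6%. Ndufa4l2, a relative of Ndufa4 known to rise in cells short of oxygen, was at 4.98 and 6.97 CPM in saline tumours and 8.73 and 10.2 CPM in mLJZD tumours (log2 fold change 0.69, SE 0.17, adjusted p = 0.00545, edgeR). Atpif1, the inhibitor of the ATP synthase, rose by 0.43 in tumours and fell by 0.95 in cultures, where the value after removal was -0.04 and not called.

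Genes of the citric acid cycle, which supplies the electrons, were mixed in tumours and in cultures. Of 18 tested, 2 were higher and 3 lower in tumours, near the 15.4% and 16.0% of all genes. In cultures 3 were higher and 7 lower (28.8% and 26.6% of all genes) with a median of -0.02, and 3 and 1 after removal of the trend (20.3% and 11.6%). In saline tumours against control cultures 17 were lower, where 35.7% of all genes were. In cultures Pdha1, of the pyruvate dehydrogenase complex, rose from 185 and 219 CPM to 304 and 284 CPM (log2 fold change 0.49, SE 0.08, adjusted p = 0.000172, edgeR), and Ogdh rose by 0.47. Idh2 and Mdh2 fell by 0.58 and 0.57, and both were uncalled after removal. In tumours Fh1, the fumarase, fell from 81.4 and 85.7 CPM to 62.2 and 61.4 CPM (-0.40, SE 0.05).

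Of the 13 protein genes of mitochondrial DNA, which supply the partner subunits, 9 were lower in tumours by edgeR, where 16.0% of all genes were. Their summed share of counts was 1.71% and 1.60% in saline tumours, 1.36% and 1.20% in mLJZD tumours, 0.986% and 1.02% in control cultures, and 0.567% and 1.05% in mLJZD cultures. The share was lower in the mLJZD tumours, without overlap, while the nuclear members had a median log2 fold change of 0.05. In saline tumours against control cultures 7 of the 13 were higher and 3 lower (44.9% and 35.7% of all genes), where 73 of the 81 nuclear members were lower. In cultures 7 of 12 were lower (26.6% of all genes) and mt-Nd5 was higher (log2 fold change 0.49), but the mLJZD cultures lay at 704 and 1306 CPM for it.

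Regulators of mitochondrial gene expression were mixed. Of 15 tested, 2 were higher and 6 lower in tumours, against 15.4% and 16.0% of all genes. In cultures 6 were higher and 2 lower (28.8% and 26.6% of all genes), and 4 and 4 after removal of the trend (20.3% and 11.6%). Ppargc1a, the coactivator known to raise oxidative phosphorylation genes, was at 2.18 and 2.53 CPM in saline tumours and 4.26 and 3.80 CPM in mLJZD tumours (log2 fold change 0.81, SE 0.24, adjusted p = 0.0164, edgeR). In cultures it went from 3.67 and 3.60 CPM to 7.44 and 8.62 CPM (1.09, SE 0.20), and the value after removal was 0.39 and not called. Polrmt, the mitochondrial RNA polymerase, fell in tumours from 42.5 and 42.0 CPM to 27.6 and 28.3 CPM (-0.57, SE 0.07). Small subunit genes have processed pseudogenes, and how reads with several matches were handled is not given in the sources used here, so a member and its copies may share counts.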

How the data were processed

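Raw gene counts of 8 RNA-seq libraries were used as deposited by the authors in 1 table of Ensembl identifiers. The submitters' processing notes name Trim Galore, FastQC 0.12.1, HISAT2 2.2.1, SAMtools 1.14, featureCounts 2.0.3 and the build GRCm39. Neither annotation release nor strand setting nor the handling of reads with several matches is given in the sources used here. Of 56953 identifiers, 52029 were given a symbol from GENCODE M21, whose coordinates were not used, and Usmg5 was not matched by the rule. CPM is the count scaled by the library total, and levels per kilobase use the principal transcript.

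Each comparison was tested with edgeR 4.0.16 in R 4.3.3 (quasi-likelihood, TMM, filterByExpr), on the libraries of the 2 groups, or on all 8 for the difference of effects, and p-values were adjusted over all genes tested by Benjamini-Hochberg. Standard errors were taken as the size of the log2 fold change over the root of F. The trend with length and GC was fitted in each library with splines (4 and 3 degrees of freedom) and entered as offsets. DESeq2 1.42.0, other scalings, filters and left-out libraries were alternatives. Scripts were tested on simulated data. The members and lists were chosen with earlier results of these data known. Genes were named by rule: restricted forms and partners, up to 3 called members per complex and direction whose groups do not overlap, called exceptions, core subunits, and up to 2 genes per direction of each related list. Not every gene that the rule names is reported here. Other named genes (Ndufs4, Ndufa10, Ndufa11, Uqcrc1, Ndufa8, Cox5b, Ndufa12, Uqcrb, Atp5g1, Mb, Myh2, Krt20 and those listed as uncalled or as called in all removals) were chosen after their values were seen. Replicate pairs differed by more than sampling noise in all 4 groups, with a median chi-square per gene of 0.825 to 2.21 where 0.455 is expected.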

Additional observations from a re-analysis of the deposited data

Results flagged for a closer look

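The change with mLJZD differed between tumours and cultures, by an interaction term over all 8 libraries, for 72 members in the positive direction and 1 in the negative (edgeR, adjusted p under 0.05), against 23.8% and 20.5% of all genes tested. With the length and GC trend removed the counts were 32 and 1. Uqcrq, of complex III, had a difference of 1.734 on the log2 scale, Ndufb6, of complex I, one of 1.594 and Uqcr11, of complex III, one of 1.584. Sdha, the flavoprotein of complex II, had a difference of -0.2077, the opposite direction, with an adjusted p of 0.0429 that became 0.0725 with a replicate block, 0.0647 with upper-quartile scaling and 0.0798 with the trend removed (edgeR), and that ran from 0.000867 to 0.205 over all alternatives, DESeq2 included.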

How the results depend on the processing

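Alternatives named for single removals of the length and GC trend are given in the order principal, longest and shortest principal transcript, and principal transcript with the trend fitted without the members; the longest, the shortest and the fit without members were chosen after seeing the data. The cause of each change was not tested. In tumours, higher calls numbered 10 with DESeq2, 9 with no filter and 9 with all 8 libraries in one fit, and lower calls 3, 3 and 2, with 9 by library totals and 12, 15, 12 and 16 after the removals. Leaving out 1 library gave 0 to 10 higher and 0 to 3 lower. The tumour median became -0.036, -0.0064, -0.028 and -0.030 after the removals and -0.00024 without mLJZD tumour 1. In cultures, higher calls numbered 0 with upper-quartile scaling, 0 in the joint fit of 8 libraries, 7 with the longest and 1 with the shortest principal transcript, and 0 to 2 with 1 library left out; lower calls numbered 17, 34, 22 and 19 after the removals. In saline tumours against control cultures, higher calls numbered 12, 10, 11 and 10 after the removals and 2 to 5 with 1 library left out. The difference of effects was positive for 32, 42, 42 and 32 members after the removals. It was negative for 2 with DESeq2, 3 by library totals, 0 with upper-quartile scaling, 3 with no filter, 3 with the longest and 0 with the shortest principal transcript, and 0 to 2 with 1 library left out. With the replicate number as a block no member was negative, since Sdha had an adjusted p of 0.0725 (edgeR); the other counts with the block were 14 and 6 in tumours, 3 and 72 in cultures, 3 and 74 between untreated groups, and 71 positive differences. Same-numbered libraries deviated together with r = -0.104 in tumours, 0.0224 in cultures and -0.00256 between untreated groups. With 2 libraries per group these values cannot show whether the number marks anything shared. The crossed pairing gave 19 and 6 calls in tumours.

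Some falls in cultures changed sign after the removals. Those of Ndufv1 became 0.056, 0.107, 0.014 and 0.062, of Uqcr10 0.045, 0.048, 0.0050 and 0.023, and of Ndufa8 0.230, 0.296, 0.172 and 0.226. With the principal and longest transcripts and the fit without members, Cox4i1 became 0.039, 0.109 and 0.033, Sdhb 0.051, 0.031 and 0.052, and Cyc1 0.017, 0.156 and 0.022. Uqcrc1 became 0.083 with the principal and 0.043 with the shortest principal transcript, and 0.089 in the fit without members. With the longest transcript alone Cox6b1 became 0.047, Ndufs3 0.020 and Sdhd 0.0074, and with the shortest principal transcript Atp5g1 became 0.051. Other scalings moved the median of all genes from -0.01 to -0.12 in cultures (upper quartile), where the member median was -0.94, and from 0.15 to 0.31 between untreated groups (library totals), where it was -0.81. Among values of single named genes, 94 in tumours, 90 in cultures (25 of them with a change of sign), 1 between untreated groups and 11 of the difference of effects lost their call under an alternative, 3 in cultures were called with the other sign, and 206, 449, 83 and 57 kept direction and side of the threshold. Depth limits genes near or under 1 CPM, such as Cox8b and Cox4i2, whose values rest on few counts.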
